A study of Homo sapiens with 6 samples.

Results

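The human mitochondrial genome is listed in the deposited count table with 37 genes, taken here as every gene on chromosome M, whose symbols all begin with MT-. They are 13 messenger RNA genes, 2 ribosomal RNA genes and 22 transfer RNA genes, out of 67026 genes in all. The annotation places 28 of them on the plus strand of the reference (12 messenger, 2 ribosomal and 14 transfer RNAs) and 9 on the minus strand (MT-ND6 and 8 transfer RNAs). They were measured by RNA sequencing of whole xenograft tumours of PC-3, a long-used line of human prostate cancer cells. In the shVCAN group (labelled a knockdown of VCAN, the gene for the matrix proteoglycan versican) and in the shGFP group (the labelled knockdown control), PC-3 cells had been transduced with a lentiviral hairpin RNA and selected with puromycin, so that neither group is untransduced. The cells, in a mix of PBS and Matrigel, were injected under the skin of male NSG mice (NOD.Cg-Prkdcscid Il2rgtm1Wjl/SzJ) aged 4 to 5 weeks, and growth was followed for 4 weeks. The labels number 3 xenografts per group, each called a tumour below. Nothing in the labels says whether the hairpin cells were cloned, whether more than 1 hairpin was used, or whether each number is a separate mouse. The p-values weigh the group difference against the spread among the 3 samples of a group, as edgeR estimates it with information shared over all tested genes. For a given gene this estimate can be narrower or wider than its own spread. The spread among samples may also not be a spread between mice or between hairpins. The NSG host lacks mature lymphocytes but supplies vessels, fibroblasts and myeloid cells, and the sources used here do not say whether mouse reads were removed before counting.

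Mitochondria keep a small circular genome that is read from both strands into long precursor RNAs. In these precursors transfer RNAs sit between most messenger and ribosomal RNAs, and cutting out the transfer RNAs by RNase P and ELAC2 releases the others. The messenger RNAs encode core subunits of complexes I, III and IV of the respiratory chain and of the ATP synthase (complex V), while complex II and all other subunits are encoded in the nucleus. The ribosomal and transfer RNAs serve only the translation of these messenger RNAs inside the mitochondrion. POLRMT is the RNA polymerase, TFAM and TFB2M are its transcription factors, and LRPPRC with SLIRP holds messenger RNAs stable after processing.

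Of the 13 messenger RNAs, 5 overlap a neighbour on the same strand, in 3 pairs. These include the messenger RNA genes whose counts fell most, MT-ATP8 and MT-ND4L. The overlaps are shown because a read that lies in the shared bases belongs to both genes, and the rule by which such reads were counted is not stated in the sources used here. MT-ATP8 and MT-ATP6 share 46 bases, MT-ND4L and MT-ND4 share 7, and MT-ATP6 and MT-CO3 share 1. The longer overlaps are printed. Sequences are from GENCODE 29 transcripts on GRCh38, 5′ to 3′, with the shared bases in capitals and 30 bases of the upstream and of the downstream gene around them.
MT-ATP8/MT-ATP6 (chrM:8497-8602, plus strand): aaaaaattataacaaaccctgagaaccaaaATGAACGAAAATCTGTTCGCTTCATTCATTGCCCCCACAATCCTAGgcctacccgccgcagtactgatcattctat
MT-ND4L/MT-ND4 (chrM:10730-10796, plus strand): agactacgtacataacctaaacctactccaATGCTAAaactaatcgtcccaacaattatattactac

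The 8 transfer RNAs with enough counts to be tested are shown with the anticodon in capitals. They are given as DNA of the coding strand from the same source, so that each can be set against its neighbours on the genome.
MT-TQ, glutamine (chrM:4329-4400, minus strand): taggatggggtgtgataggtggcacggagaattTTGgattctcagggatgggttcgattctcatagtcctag
MT-TW, tryptophan (chrM:5512-5579, plus strand): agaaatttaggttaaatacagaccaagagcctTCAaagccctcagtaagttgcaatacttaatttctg
MT-TA, alanine (chrM:5587-5655, minus strand): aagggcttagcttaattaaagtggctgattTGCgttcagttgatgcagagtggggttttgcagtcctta
MT-TY, tyrosine (chrM:5826-5891, minus strand): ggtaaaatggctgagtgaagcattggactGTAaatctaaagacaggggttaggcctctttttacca
MT-TS1, serine (chrM:7446-7514, minus strand): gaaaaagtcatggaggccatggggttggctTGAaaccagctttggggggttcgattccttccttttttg
MT-TE, glutamate (chrM:14674-14742, minus strand): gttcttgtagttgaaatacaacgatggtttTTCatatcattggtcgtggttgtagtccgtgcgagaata
MT-TT, threonine (chrM:15888-15953, plus strand): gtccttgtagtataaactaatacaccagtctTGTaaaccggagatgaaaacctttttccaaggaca
MT-TP, proline (chrM:15956-16023, minus strand): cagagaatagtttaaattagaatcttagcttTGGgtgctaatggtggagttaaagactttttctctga

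The libraries held 12959840, 13327617 and 13134546 counts in shVCAN tumours 1, 2 and 3, and 12936539, 11253058 and 11633764 counts in shGFP tumours 1, 2 and 3. VCAN, the targeted gene, had 69, 39 and 44 counts in the shVCAN tumours and 133, 104 and 121 counts in the shGFP tumours, without overlap (log2 fold change −1.54, SE 0.207, edgeR quasi-likelihood adjusted p = 4.59e-07). The 5 genes taken as present in PC-3 (KRT8, KRT18, KRT19, VIM and CD44) summed to 3109 to 3195 CPM (counts normalised to the library size with TMM factors) in shVCAN tumours and 3238 to 3468 CPM in shGFP tumours. These markers of the labelled cell line were thus found in every tumour, though the sums did not overlap between groups. At an adjusted p under 0.05 by edgeR, KRT18 and KRT8 were lower (log2 fold change −0.54 and −0.19) and CD44 was higher (0.47). The other 2 were not called. Over all genes tested, 21.1% were lower and 19.2% higher at that threshold.

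Transcripts of the mitochondrial genome were fewer in shVCAN tumours in all 3 RNA classes. The 37 genes together took 8.22%, 8.19% and 9.84% of all counts in shVCAN tumours 1, 2 and 3, against 19.7%, 16.4% and 18.4% in shGFP tumours 1, 2 and 3. No shVCAN tumour reached the lowest shGFP tumour, and the means were 8.75% ± 0.945 and 18.2% ± 1.65 (SD, n = 3 each). Ribosomal RNAs took 1.93% ± 0.244 of counts in shVCAN and 3.30% ± 0.214 in shGFP, a 1.71-fold lower share. Transfer RNAs took 0.00606% ± 0.000657 in shVCAN and 0.0132% ± 0.00245 in shGFP, which is 2.18-fold lower, as was the share of the messenger RNAs. Since whole tumours were sequenced, fewer cells of a type and less RNA per cell cannot be told apart.

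Of the 23 mitochondrial genes that passed the filter on low counts, 22 were lower in shVCAN at a Benjamini-Hochberg adjusted p under 0.05 in edgeR's quasi-likelihood test over 16254 genes. None of the 23 was higher: 0 were called so by edgeR, DESeq2 or limma-voom, and 0 at an unadjusted p under 0.05, since every fitted log2 fold change was below 0. Over all genes tested, 21.1% were called lower and 19.2% higher. The groups did not overlap in those 22 genes, and the exception was the transfer RNA MT-TT. The share of all tested genes without overlap was not counted, so this describes the members only. The filter was passed by 13 of 13 messenger RNAs, 2 of 2 ribosomal RNAs and 8 of 22 transfer RNAs, and 13, 2 and 7 of these were called lower. The median log2 fold change was −1.40 for messenger RNAs, −0.81 for ribosomal RNAs and −1.65 for the tested transfer RNAs, against 0.0014 for all genes tested.

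**Figure D1:**
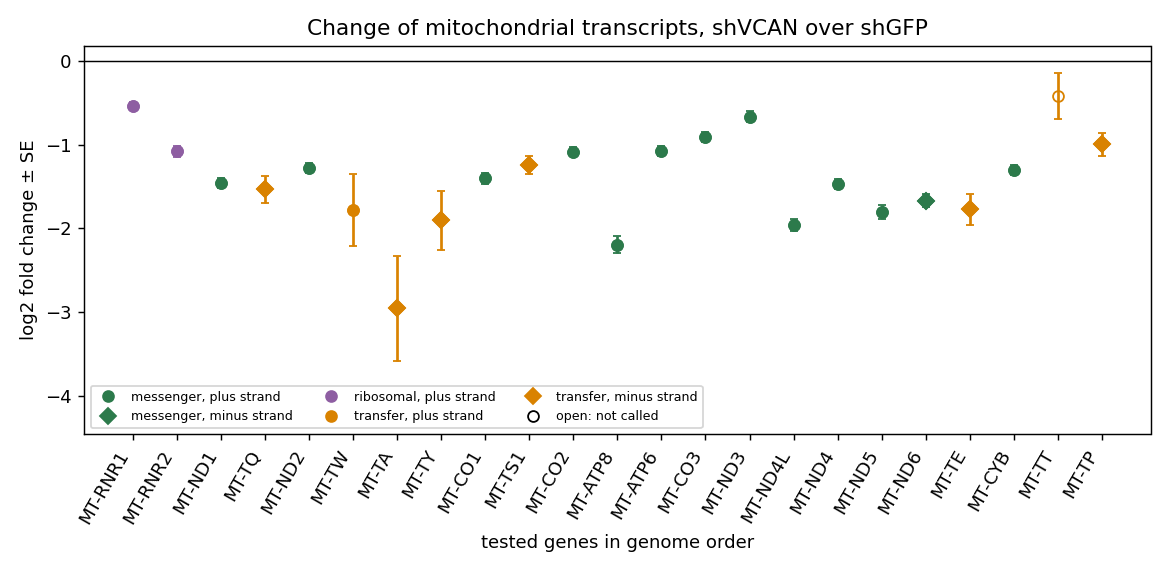
Log2 fold change of shVCAN over shGFP with its SE for the 23 tested mitochondrial genes, in genome order (circles are genes of the plus strand, diamonds of the minus strand, and filled symbols are called at an adjusted p under 0.05). Every symbol lies below 0, from −2.95 for MT-TA to −0.42 for MT-TT, the open symbol.

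MT-RNR1, the RNA of the small mitochondrial ribosomal subunit (chrM:648-1601), had 5049.6, 5408 and 5894 CPM in shVCAN tumours 1, 2 and 3, and 7947, 7699 and 8061 CPM in shGFP tumours 1, 2 and 3. All 3 shVCAN values lay below all 3 shGFP values, and the difference was the smallest of any called mitochondrial gene (log2 fold change −0.54, SE 0.0428, adjusted p = 1.62e-11 by edgeR). MT-RNR2, the RNA of the large subunit (chrM:1671-3229), had 11703, 11492 and 15297 CPM in shVCAN tumours and 29548, 24313 and 27516 CPM in shGFP tumours. It fell 2.11-fold (log2 fold change −1.08, SE 0.0668, adjusted p = 5.50e-14 by edgeR). The 2 ribosomal RNAs lie side by side at the start of the same precursor with MT-TV between them. The ratio of MT-RNR1 to MT-RNR2 counts was 0.431, 0.471 and 0.385 in shVCAN tumours and 0.269, 0.317 and 0.293 in shGFP tumours, so that it was higher in each shVCAN tumour.

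Complex I, NADH dehydrogenase, takes 7 of the messenger RNAs, and the range of change was widest there. MT-ND4L, a small membrane subunit (chrM:10470-10766), had 447, 428 and 539 CPM in shVCAN tumours 1, 2 and 3, and 2012, 1533 and 1964 CPM in shGFP tumours 1, 2 and 3. The groups were far apart, and the gene fell 3.90-fold (log2 fold change −1.96, SE 0.0739, adjusted p = 5.66e-19 by edgeR). MT-ND3 (chrM:10059-10404), the core subunit gene that precedes it with only MT-TR between them, had 2194, 1993 and 2572 CPM in shVCAN tumours and 3966, 3135 and 3624 CPM in shGFP tumours. MT-ND3 fell 1.59-fold, the smallest fall of the 13 messenger RNAs (log2 fold change −0.67, SE 0.0654, adjusted p = 1.24e-09 by edgeR). The ratio of MT-ND3 to MT-ND4L counts was therefore 4.91, 4.65 and 4.77 in shVCAN tumours and 1.97, 2.05 and 1.84 in shGFP tumours.

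MT-ND5, a proton-pumping subunit (chrM:12337-14148), had 1265, 1332 and 1718 CPM in shVCAN tumours and 5813, 4222 and 5009 CPM in shGFP tumours. It fell 3.49-fold without overlap (log2 fold change −1.80, SE 0.0817, adjusted p = 4.07e-17 by edgeR). MT-ND6 (chrM:14149-14673) abuts the end of MT-ND5 on the other strand and is the only messenger RNA annotated on the minus strand. MT-ND6 had 483, 511 and 625 CPM in shVCAN tumours and 1916, 1423 and 1797 CPM in shGFP tumours, and fell 3.17-fold (log2 fold change −1.67, SE 0.0768, adjusted p = 5.63e-17 by edgeR). MT-ND1, MT-ND2 and MT-ND4, the other membrane subunits, had log2 fold changes of −1.46, −1.27 and −1.47. Together the 7 complex I messenger RNAs took 2.04% ± 0.206 of all counts in shVCAN tumours and 4.83% ± 0.523 in shGFP tumours.

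MT-CYB, cytochrome b and the only mitochondrially encoded subunit of complex III (chrM:14747-15887), had 3141, 3225 and 3689.8 CPM in shVCAN tumours 1, 2 and 3, and 9249, 7140.5 and 8351 CPM in shGFP tumours 1, 2 and 3. It fell 2.46-fold, with the groups well apart (log2 fold change −1.30, SE 0.0602, adjusted p = 6.48e-17 by edgeR). The 3 catalytic subunits of complex IV, cytochrome c oxidase, had log2 fold changes of −1.40 to −0.91. MT-CO1, which holds the haem and copper centre where oxygen is reduced (chrM:5904-7445), had 20396, 20559.8 and 25413 CPM in shVCAN tumours and 64534, 51217 and 59737 CPM in shGFP tumours. Its log2 fold change was −1.40 (SE 0.0616, adjusted p = 1.95e-17 by edgeR). MT-CO2, which takes electrons from cytochrome c, averaged 7494 ± 749 CPM in shVCAN and 15899.7 ± 1636 CPM in shGFP (log2 fold change −1.09). MT-CO3 (chrM:9207-9990), which ends next to MT-TG and MT-ND3, had 8058, 7225 and 9324 CPM in shVCAN tumours and 16493, 14582 and 15068 CPM in shGFP tumours. MT-CO3 had the next smallest fall among messenger RNAs after MT-ND3 (log2 fold change −0.91, SE 0.0554, adjusted p = 3.97e-14 by edgeR).

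Complex V held the messenger RNA gene whose counts fell most. MT-ATP8, a small subunit of the membrane part of the ATP synthase (chrM:8366-8572), had 20.8, 16.6 and 20.8 CPM in shVCAN tumours 1, 2 and 3, and 76.3, 87.2 and 102 CPM in shGFP tumours 1, 2 and 3. It fell 4.57-fold without overlap (log2 fold change −2.19, SE 0.0995, adjusted p = 4.07e-17 by edgeR). MT-ATP6, the subunit that forms the proton path (chrM:8527-9207) and is carried on the same transcript, averaged 4016 ± 376 CPM in shVCAN and 8471 ± 919 CPM in shGFP, a log2 fold change of −1.08. Counts of MT-ATP8 per count of MT-ATP6 were 0.00550, 0.00433 and 0.00467 in shVCAN tumours and 0.00811, 0.0115 and 0.0121 in shGFP tumours. The corresponding ratio of MT-ND4L to MT-ND4, also carried on 1 transcript, was 0.0624, 0.0570 and 0.0622 in shVCAN tumours and 0.0848, 0.0821 and 0.0889 in shGFP tumours. For each of these shared transcripts, counts of the upstream gene therefore fell more than those of the downstream gene, and neither ratio overlapped between groups. Since both genes of a pair are carried on 1 transcript, these are falls of gene counts and not of separate messenger RNAs. The part that reads in the shared capitals, shown above, play in these ratios was not tested.

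**Figure D2:**
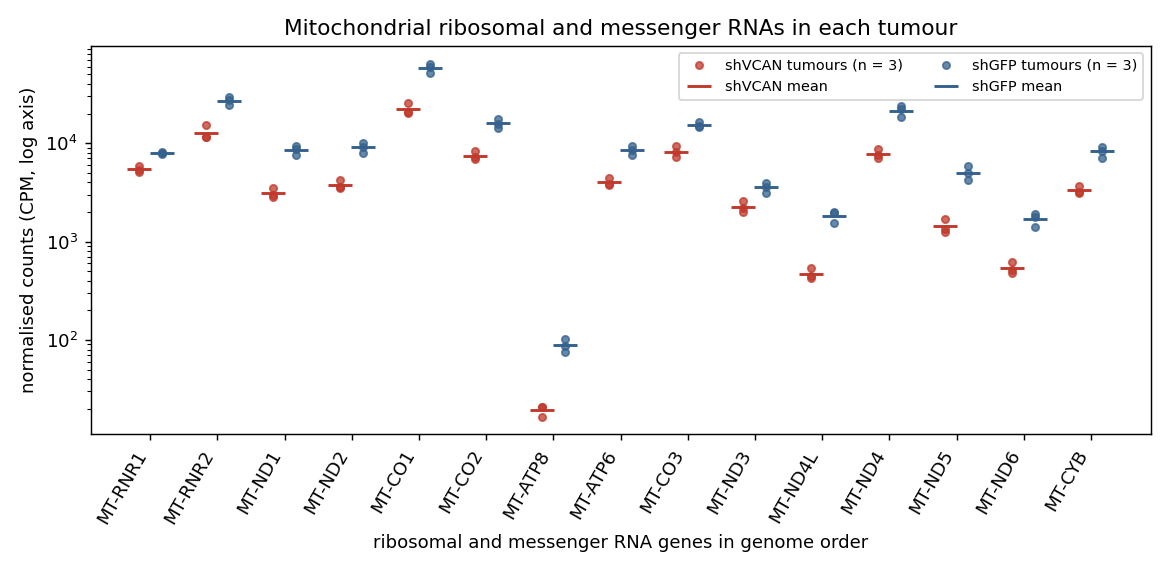
Normalised counts (CPM, log axis) of the 2 ribosomal and 13 messenger RNAs in each tumour, in genome order, with shVCAN tumours in red, shGFP tumours in blue and bars at the group means (n = 3 each). The 3 shVCAN points lie below the 3 shGFP points for each of the 15 genes, and MT-ATP8 lies far below all others.

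Per kilobase of gene, the order of the messenger RNAs was nearly kept between groups. MT-CO1 had the highest level, 14347 ± 1849 CPM per kilobase in shVCAN and 37935 ± 4374 CPM per kilobase in shGFP, above MT-CO2 in every tumour. MT-CO2 and MT-CO3 came next and overlapped each other in either group. MT-CYB, MT-ND4L, MT-ND6, MT-ND5 and MT-ATP8 were the lowest of the 15 messenger and ribosomal RNAs in that order in either group. MT-ATP8 stood lowest with 93.6 ± 11.7 CPM per kilobase in shVCAN and 428 ± 63.1 CPM per kilobase in shGFP. MT-ATP6, carried on the same transcript, had 5897 ± 552 CPM per kilobase in shVCAN and 12440 ± 1350 CPM per kilobase in shGFP. The ranks of MT-ATP8 and MT-ND4L are thus ranks of counts given to a gene, not levels of a transcript. The part of read counting and library making in them was not tested. MT-ND3 and MT-RNR1 moved up the order, to rank 5 and 7 in shVCAN, against 7 and 10 in shGFP. MT-ND4 moved down, to rank 8 in shVCAN, against 5 in shGFP. Many neighbours in the order overlapped, among them MT-ND1 and MT-ND2 in either group. Across the 13 messenger RNAs the log2 fold change had a Spearman rho of 0.67 with the shGFP level per kilobase, 0.049 with gene length and −0.22 with position. These describe genes that share precursors and libraries, and the first shares the shGFP values with the fold change.

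The messenger RNAs moved together from tumour to tumour within a group. Among shVCAN tumours, tumour 3 was highest in 13 of 13 messenger RNAs. Among shGFP tumours, tumour 1 was highest in 12 of 13 and tumour 2 lowest in 12 of 13, and the exception in both cases was MT-ATP8. The median coefficient of variation over the 13 messenger RNAs was 12.5% in shVCAN and 11.7% in shGFP, so that the spread within a group was of like size in the lower group. Over all tested genes, edgeR's common estimate of variation between samples, beyond counting error, was 6.63%. The SEs and p-values of the messenger RNAs in the main fit draw on all genes and may be too small for their own spread.

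Because a shared shift would hide differences among the members, each was also compared with the mitochondrial messenger RNA total, by an edgeR fit whose library sizes were the sums over the 13 messenger RNAs. Each messenger RNA is itself part of that total, so where some lie below 0 others must lie above it. The value of MT-CO1, the largest part, is drawn towards 0 by this. Relative to that total 6 mitochondrial genes were lower and 4 higher at an adjusted p under 0.05. Over all genes tested, 0.492% were called lower and 92.7% higher, since nearly all nuclear genes are higher relative to a total that fell. With so many genes called, the adjustment hardly raises a p near the threshold. Adjusted p-values of members close to 0.05 in this fit are therefore nearly unadjusted, and such calls are weak. This fit takes its error from the spread of all genes against the mitochondrial total, so its SEs are wider than the spread of the shares among the members.

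MT-RNR1 was higher relative to the messenger RNA total (relative log2 fold change 0.75, SE 0.119, adjusted p = 6.73e-10 by edgeR), as were MT-ND3 (0.62, SE 0.131, adjusted p = 2.67e-06), MT-CO3 (0.38, SE 0.112, adjusted p = 0.00090) and the transfer RNA MT-TT (0.88, SE 0.305, adjusted p = 0.0046). MT-ND3 took 3.63%, 3.32% and 3.52% of the mitochondrial messenger RNA counts in shVCAN tumours 1, 2 and 3, and 2.28%, 2.25% and 2.26% in shGFP tumours 1, 2 and 3. MT-CO3 took 13.32%, 12.02% and 12.76% in shVCAN tumours and 9.46%, 10.5% and 9.42% in shGFP tumours. Neither share overlapped between groups.

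Lower relative to the total were MT-ATP8 (relative log2 fold change −0.91, SE 0.173, adjusted p = 1.96e-07 by edgeR), MT-ND4L (−0.67, SE 0.146, adjusted p = 5.94e-06), MT-ND5 (−0.51, SE 0.131, adjusted p = 0.00013) and MT-ND6 (−0.37, SE 0.145, adjusted p = 0.011). For MT-ATP8 and MT-ND4L these are gene counts from transcripts shared with MT-ATP6 and MT-ND4. The transfer RNAs MT-TE (−0.47, adjusted p = 0.044) and MT-TA (−1.69, adjusted p = 0.021) were also called. Without shGFP tumour 3 the calls of MT-ND6, MT-TE and MT-TA were lost (adjusted p = 0.079, 0.15 and 0.13 by edgeR), so that 3 genes were called lower in place of 6. MT-ND5 took 2.09%, 2.22% and 2.35% of the mitochondrial messenger RNA counts in shVCAN tumours and 3.34%, 3.03% and 3.13% in shGFP tumours. MT-ND6 took 0.798%, 0.850% and 0.855% in shVCAN tumours and 1.10%, 1.02% and 1.12% in shGFP tumours, again without overlap.

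MT-ND2 and MT-CYB had nearly the same share in either group. MT-ND2 took 5.81% ± 0.114 of the messenger RNA counts in shVCAN and 5.74% ± 0.00969 in shGFP, and MT-CYB took 5.20% ± 0.160 in shVCAN and 5.22% ± 0.0928 in shGFP (SD, n = 3 each). MT-CO1, the most counted, took 34.2% ± 0.533 in shVCAN and 37.0% ± 0.297 in shGFP. Its share did not overlap between groups, but its relative log2 fold change of −0.11 was not called (adjusted p = 0.25 by edgeR). The same was so for MT-ND1, with 4.85% ± 0.101 in shVCAN and 5.45% ± 0.0442 in shGFP (−0.17, adjusted p = 0.17 by edgeR).

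**Figure D3:**
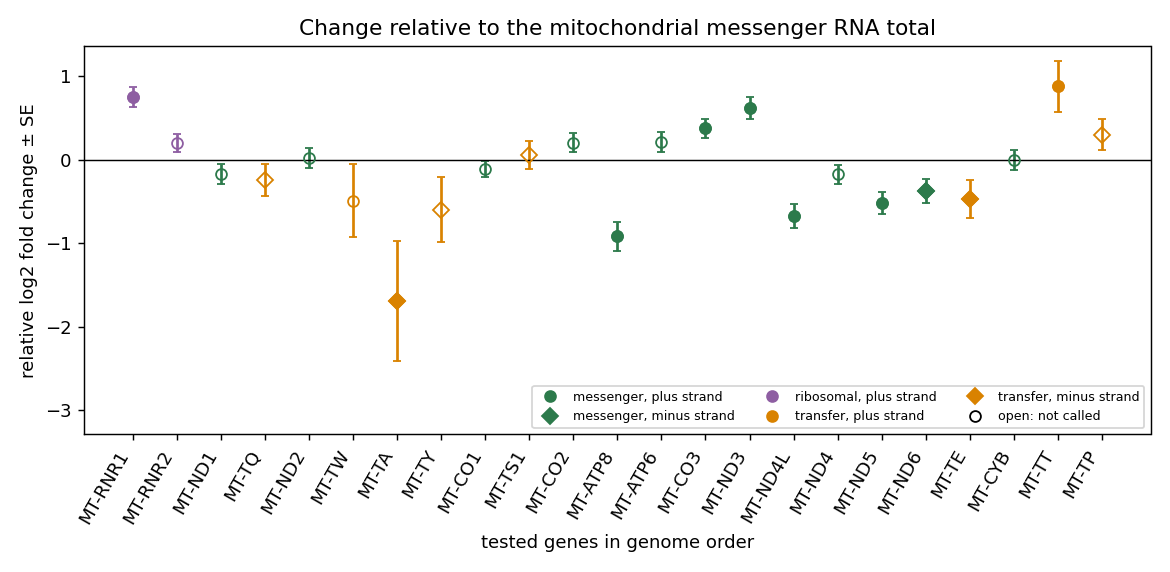
Log2 fold change of shVCAN over shGFP relative to the mitochondrial messenger RNA total, with its SE, for the 23 tested mitochondrial genes in genome order (filled symbols are called at an adjusted p under 0.05). MT-CO3 at 0.38 and MT-ND3 at 0.62 lie above 0, and the next messenger RNA along the genome, MT-ND4L, lies below it at −0.67.

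Along the genome the relative changes had no single trend. MT-CO2, MT-ATP6, MT-CO3 and MT-ND3, which follow each other apart from MT-ATP8, were between 0.21 and 0.62 on the relative log2 scale. MT-CO2 and MT-ATP6 were not called (adjusted p = 0.071 and 0.079 by edgeR), though their shares did not overlap between groups. MT-CO2 took 11.6% ± 0.286 of the messenger RNA counts in shVCAN and 10.1% ± 0.184 in shGFP. MT-ATP6 took 6.23% ± 0.140 in shVCAN and 5.37% ± 0.0752 in shGFP. From MT-ND4L to MT-ND6, 4 of 4 messenger RNAs were below 0, and MT-ND4 was the member not called (−0.17, adjusted p = 0.12 by edgeR). Its share, 12.1% ± 0.385 in shVCAN and 13.6% ± 0.212 in shGFP, did not overlap either. The ratio of MT-ND5 counts to those of MT-CYB, the next messenger RNA on the plus strand, was 0.403, 0.413 and 0.466 in shVCAN tumours and 0.629, 0.591 and 0.600 in shGFP tumours.

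By strand, minus-strand genes took 0.0564%, 0.0599% and 0.0715% of all counts in shVCAN tumours 1, 2 and 3, and 0.192%, 0.146% and 0.183% in shGFP tumours 1, 2 and 3. That was 2.77-fold lower in shVCAN, where the plus-strand genes were 2.07-fold lower. Per 1000 counts of mitochondrial messenger and transfer RNAs, the minus strand held 8.76, 9.36 and 9.37 counts in shVCAN tumours and 11.9, 10.9 and 12.1 counts in shGFP tumours, which did not overlap. Most minus-strand counts came from MT-ND6, so this is largely a statement about that gene. The ratio of MT-ND6 to MT-ND5, its plus-strand neighbour, was 0.381, 0.383 and 0.364 in shVCAN tumours and 0.330, 0.337 and 0.359 in shGFP tumours, so that it was higher in each shVCAN tumour. Which strand setting the counting used is not stated in the sources used here. In the table, 236 of 705 nuclear genes whose annotated exons lie wholly under exons of the other strand had at least 10 counts summed over the tumours, and 293 had 0.

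Transfer RNAs were sparsely counted, and they are given by their counts. MT-TS1, a serine transfer RNA, had the most, with 327, 376 and 391 counts in shVCAN tumours 1, 2 and 3, and 806, 512 and 782 in shGFP tumours 1, 2 and 3. It fell 2.36-fold without overlap (log2 fold change −1.24, SE 0.109, adjusted p = 1.10e-10 by edgeR). MT-TP, for proline, had 152, 186 and 203 counts in shVCAN tumours and 366, 227 and 285 in shGFP tumours (log2 fold change −0.996, SE 0.134, adjusted p = 4.69e-07 by edgeR). MT-TQ, for glutamine, had 113, 99 and 159 counts in shVCAN tumours and 383, 214 and 280 in shGFP tumours (log2 fold change −1.53). In these 3 transfer RNAs every shVCAN tumour was lower than every shGFP tumour.

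MT-TE, for glutamate, which abuts MT-ND6 on the minus strand, had 52, 57 and 56 counts in shVCAN tumours and 184, 110 and 165 in shGFP tumours (log2 fold change −1.77, close to the −1.67 of MT-ND6). MT-TY, MT-TW and MT-TA, for tyrosine, tryptophan and alanine, fell by 1.90, 1.78 and 2.95 on the log2 scale. The value of MT-TA rests on 4, 2 and 1 counts in shVCAN tumours and 13, 11 and 22 in shGFP tumours, and its SE was 0.627. MT-TT, for threonine, had 33, 48 and 42 counts in shVCAN tumours and 62, 40 and 32 in shGFP tumours. These groups overlapped, and the log2 fold change of −0.42 was not called (SE 0.273, adjusted p = 0.23 by edgeR). MT-TT lies directly behind MT-CYB on the plus strand, and at these counts a change of this size was not detectable.

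The counted transfer RNAs were those with open ground beside them. With a side called free where no gene of the same strand lies within 150 bases, the read length, MT-TQ, MT-TS1 and MT-TP were free on both sides and had 1248 to 3194 counts summed over the 6 tumours. MT-TF, MT-TW, MT-TA, MT-TY, MT-TE and MT-TT were free on 1 side and had 17 to 624 counts, with a median of 160. The remaining 13 had no free side and 0 to 7 counts, 15 in all, and 10 of them were listed at 0 in every tumour. MT-TQ, MT-TS1 and MT-TP have genes of the opposite strand directly beside them. A count of 0 here does not show that a transfer RNA was absent. Some nuclear genes that cells generally use were likewise listed at 0 in all 6 tumours, among them the complex I subunits NDUFS1 and NDUFA6 (named here after their values were seen). How the counting treated reads that reach into a neighbouring gene, and whether RNAs as short as transfer RNAs were kept during library making, is not stated in the sources used here.

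**Figure D4:**
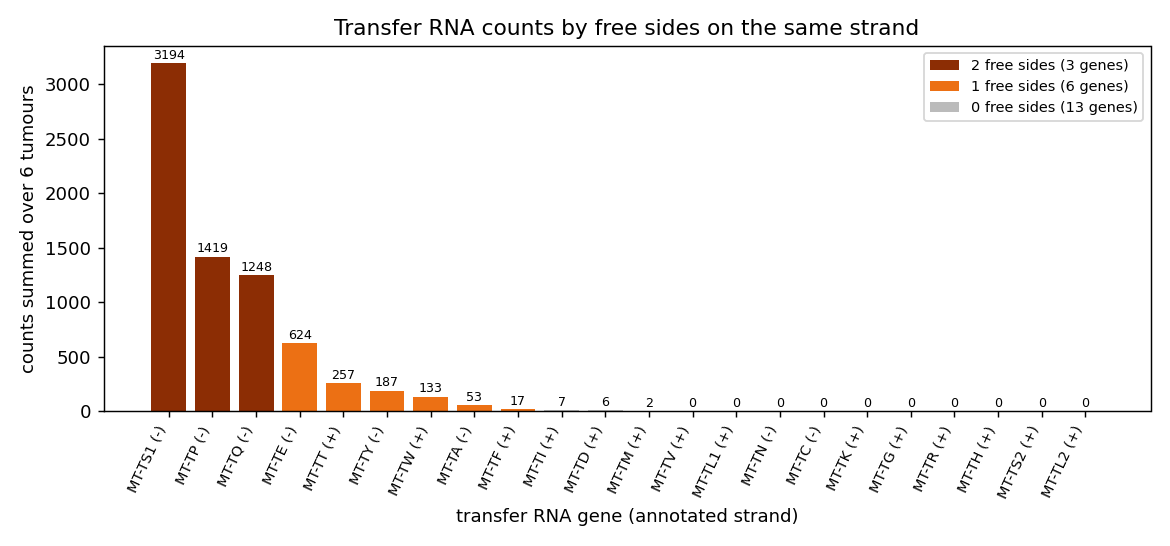
Counts summed over the 6 tumours for each of the 22 transfer RNAs, with the annotated strand beside the name and the colour giving the number of sides with no gene of the same strand within 150 bases. The bars of the 3 genes with 2 free sides reach 1248 to 3194 counts, and no gene without a free side exceeds 7.

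Copies of mitochondrial sequence in nuclear chromosomes are so alike that reads can be shared between the copy and its parent. The table listed 417 such copies, and 367 had 0 counts in every tumour. The counts of all copies came to 0.451% of those of the mitochondrial genes. The 4 that passed the filter were called lower in shVCAN. MTATP6P1 on chromosome 1 (633696 to 634376, GRCh38), which matches MT-ATP6 over 98.5% of its bases and differs at 10 of 681, had 4402, 4329 and 4611 counts in shVCAN tumours 1, 2 and 3, and 9154, 6770 and 9118 counts in shGFP tumours 1, 2 and 3. That was 7.56% to 9.85% of the counts of MT-ATP6 in each tumour, and its log2 fold change was −1.21 (SE 0.0643). MTCO1P12 (98.7% identity to MT-CO1), MTND2P28 (98.4% to MT-ND2) and MTND4P12 (95.7% to MT-ND4) had log2 fold changes of −1.57, −1.48 and −1.29, and each stood below 0.3% of its parent's counts. Whether these reads came from the nuclear copy or from the mitochondrial parent cannot be told apart in counts, so these values are uncertain.

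The nuclear genes that share the respiratory chain with the mitochondrial genes went the other way. Of 75 tested nuclear subunits of complexes I to V, 54 rose, 1 fell and 20 were not called, with a median log2 fold change of 0.39. In complex IV, 9 of 11 rose. COX7B, a small subunit, had 132 ± 7.60 CPM in shVCAN and 64.8 ± 2.86 CPM in shGFP (log2 fold change 1.02, SE 0.0654, adjusted p = 1.13e-13 by edgeR), and COX7C, NDUFA4 and COX7A2 rose by 0.61, 0.71 and 0.65 on the log2 scale. In complex V, 16 of 17 rose, among them ATP5MJ (log2 fold change 0.76), ATP5F1E (0.44), ATP5F1C (0.53) and ATP5PB (0.49). In complex I, 22 of 34 rose, and the 4 with the smallest p were NDUFB7 (0.59), NDUFA5 (0.92), NDUFA2 (0.67) and NDUFB9 (0.49). In complex III, 6 of 9 rose, among them UQCRQ (0.55), UQCRFS1, the Rieske protein (0.67), UQCRB (0.31) and UQCRH (0.34), and 1 fell (UQCRC1, −0.16, named after its value was seen). In complex II, which has no mitochondrially encoded subunit, 1 of 4 rose (SDHD, 0.54). The shares that rose stand against 19.2% of all genes tested, and of the 75 subunits 54 to 65 rose and 0 or 1 fell under the 4 other scalings.

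**Figure D5:**
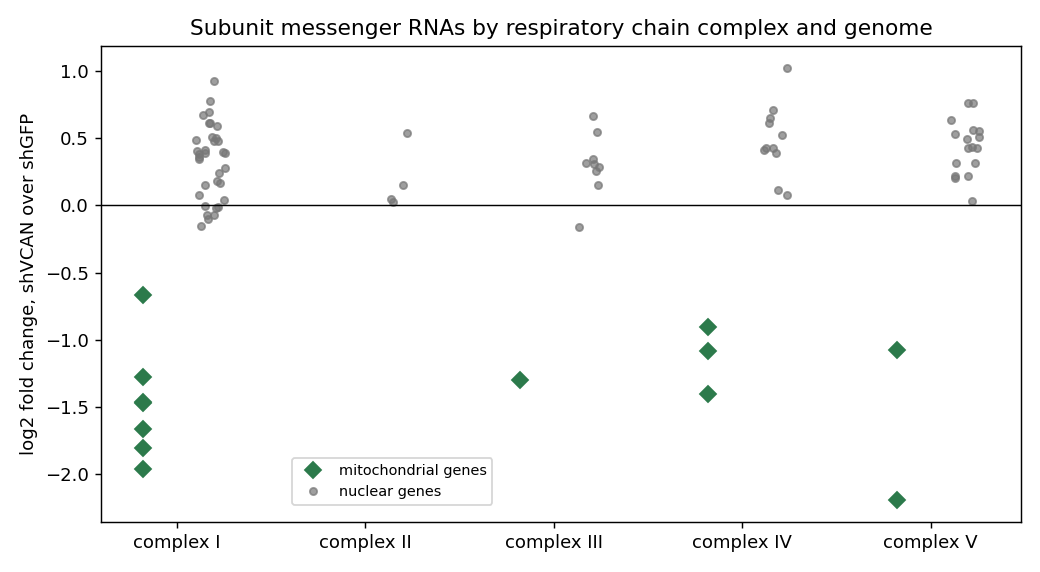
Log2 fold change of shVCAN over shGFP for the tested subunit messenger RNAs of the 5 respiratory chain complexes, with the mitochondrially encoded ones at left (diamonds) and the nuclear ones at right (dots, spread sideways for visibility). The 13 mitochondrial genes lie between −2.19 and −0.67, and most nuclear genes lie above 0.

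Genes that make, cut, hold and translate mitochondrial RNA were more often higher than lower. Of 88 tested genes in 6 lists, 33 rose and 7 fell, with a median log2 fold change of 0.15, where 19.2% of all genes tested were higher and 21.1% lower. The 7 lower were 2 without shGFP tumour 3 or without shVCAN tumour 1, 3 without shVCAN tumour 3 and 4 without shGFP tumour 2. Among 10 genes of mitochondrial transcription, 4 rose and 0 fell. POLRMT, the polymerase, had 60.03, 69.36 and 60.20 CPM in shVCAN tumours 1, 2 and 3, and 63.4, 64.9 and 71.0 CPM in shGFP tumours 1, 2 and 3, and was not called (log2 fold change −0.07, SE 0.0748, adjusted p = 0.48 by edgeR). TFAM, which packs mitochondrial DNA and bends its promoters, had 98.1, 81.0 and 103.8 CPM in shVCAN tumours and 99.8, 95.1 and 88.5 CPM in shGFP tumours, and was not called either (log2 fold change −0.0036, SE 0.0748, adjusted p = 0.98 by edgeR). The groups overlapped in both genes. TFB2M, the factor that melts the promoter, rose by 0.50, MTERF3 by 0.43, MTRES1 by 0.47 and MTERF1 by 0.39 on the log2 scale.

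Among 13 genes of mitochondrial RNA stability and decay, 7 rose and 0 fell, where 19.2% of all genes tested were higher and 21.1% lower. LRPPRC had 117.9, 118.1 and 125.1 CPM in shVCAN tumours and 107.0, 99.7 and 104.5 CPM in shGFP tumours, without overlap (log2 fold change 0.21, SE 0.0601, adjusted p = 0.0049 by edgeR). Its partner SLIRP rose by 0.48, the RNA granule protein GRSF1 by 0.24 and PTCD3 by 0.28. In RNA processing 5 of 10 rose and 2 fell, and the share that fell is near the 21.1% of all genes tested. TRMT10C and HSD17B10, subunits of mitochondrial RNase P, rose by 0.60 and 0.35, and FASTKD4 by 0.21. PRORP, the nuclease subunit of RNase P, was not called (log2 fold change 0.24, adjusted p = 0.26 by edgeR), and ELAC2, which cuts the other end of the transfer RNAs, fell by 0.19 (adjusted p = 0.019), both named after their values were seen. FASTKD5, needed for ends of messenger RNAs that no transfer RNA flanks, fell by 0.28.

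For mitochondrial DNA replication and nucleotide supply, 7 of 18 rose and 2 fell. SSBP1, which coats single-stranded mitochondrial DNA, rose by 0.77, SUCLG1 by 0.61, DGUOK by 0.47 and SUCLA2 by 0.46. Of 23 genes that modify mitochondrial ribosomal and transfer RNAs, 5 rose (among them YRDC by 0.40, TRIT1 by 0.45 and TRMT61B by 0.50) and 3 fell (METTL17 by 0.28). The share that rose in this list is close to the 19.2% of all genes tested, and the share that fell is under the 21.1%. Of 14 translation factors, 5 rose and 0 fell, with TACO1, an activator of MT-CO1 translation, higher by 0.35, MTRFR by 0.49, MTIF3 by 0.36 and GFM2 by 0.25.

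Of 17 mitochondrial membrane and matrix proteins taken as signs of mitochondrial mass, 10 rose and 0 fell. The chaperonin pair HSPE1 and HSPD1 rose by 0.97 and 0.34, cytochrome c (CYCS) by 0.68 and the import receptor TOMM22 by 0.37. Of 12 mitophagy genes, 3 rose (PHB2 by 0.26, BNIP3 by 0.32 and BNIP3L by 0.23) and 2 fell (OPTN by 0.27), with a median log2 fold change of −0.022. The shares of the mitophagy list are near the 19.2% higher and 21.1% lower of all genes tested, while the share that rose in the mass list lies above that 19.2%. Of 11 regulators of mitochondrial biogenesis 0 rose and 5 fell, and the 4 with the smallest p were CREB1 (−0.31), ESRRA (−0.23), MYC (−0.20) and YY1 (−0.16). With libraries scaled by size alone this list turned, with 1 higher, 0 lower and a median of 0.0032. Under that scaling 0 of the 88 expression genes were lower and 49 higher. It raised the median of all tested genes to 0.17 and gave 1890 lower and 5228 higher genes, against 3425 and 3120 with TMM, while the count of mitochondrial genes lower stayed at 22.

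Some other measures differed between groups, in either direction, and others overlapped. The small cytoplasmic RNA RN7SL1, of the signal recognition particle, had 3003 ± 124 CPM in shVCAN and 687 ± 79.5 CPM in shGFP, and near-identical copies can share its reads. RN7SL1 was in a list of 12 mostly nuclear noncoding RNAs, of which 7 were tested, 1 (RN7SL1) rose and 2 fell, with a median log2 fold change of 0.0052. Without RN7SL1 the list summed to 2009.8 to 2091 CPM in shVCAN tumours and 2001 to 2192 CPM in shGFP tumours, which overlapped. The 25 replication-dependent histones, whose messenger RNAs mostly lack poly(A) tails, summed to 239 to 255 CPM in shVCAN tumours and 288 to 299.8 CPM in shGFP tumours, with 5 of 15 tested lower and 1 higher. Skeletal muscle, a tissue rich in mitochondria that can lie close to a tumour under the skin, was followed by 17 markers. They summed to 392.2 to 514.9 CPM in shVCAN tumours and 454 to 680.4 CPM in shGFP tumours, which overlapped. Of 12 tested, 7 were lower, and 1 marker was listed at 0. The called shares in these lists stand against 21.1% lower and 19.2% higher over all genes tested, and the noncoding list lies near these.

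Of 11 fibroblast and pericyte markers, summing to 397 to 492 CPM in shVCAN tumours and 838 to 944 CPM in shGFP tumours, 5 of 8 tested were lower and 1 higher. Most of that sum was the collagen gene COL1A1, with means of 300 CPM in shVCAN and 619 CPM in shGFP (named after its values were seen). Of 10 endothelial markers, summing to 112 to 126 CPM in shVCAN tumours and 172 to 180.1 CPM in shGFP tumours, 5 of 6 tested were lower. The 12 macrophage markers summed to 4.16 to 5.91 CPM in shVCAN tumours and 5.33 to 8.55 CPM in shGFP tumours, which overlapped. Of these markers 6, among them the complement genes C1QA, C1QB and C1QC, were listed at 0 (named after their values were seen). The 7 lymphocyte and 7 erythroid markers summed to at most 1.16 and 0.949 CPM in any tumour. The 7 adipocyte markers summed to 28.96 to 31.74 CPM in shVCAN tumours and 19.4 to 27.7 CPM in shGFP tumours, with 1 higher (FABP4) and 1 lower (PLIN4) of 3 tested, named after their values were seen. Without FABP4 they summed to 10.9 to 14.2 CPM in shVCAN tumours and 16.2 to 22.5 CPM in shGFP tumours, so that the higher sum rested on that gene. Of 6 neutrophil markers only S100A9 was tested, with 96.5 ± 7.39 CPM in shVCAN and 71.9 ± 9.11 CPM in shGFP, and the other 5 summed to under 1 CPM in every tumour. Counts of called markers stand against 21.1% lower and 19.2% higher over all genes tested, and few markers of each list were tested. The part of these cell types and RNAs in the lower mitochondrial counts was not tested.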

How the data were processed

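RNA sequencing of 6 PC-3 xenografts was analysed as 3 shVCAN against 3 shGFP tumours, grouped by the labels. The authors deposited raw read counts for each gene. The submitters' processing notes name Trim Galore, STAR, DESeq2 and hg38 with no version or order. The counting program, annotation release, strand setting and any poly(A) selection are not stated in the sources used here. A further experimental group in the growth protocol was not analysed here.

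Of 67071 rows, 45 pseudoautosomal duplicates with 0 counts were dropped. Symbols came from a table of gene names and GENCODE 29, whose annotation on GRCh38 gave coordinates. The main test was edgeR's quasi-likelihood test (version 4.0.16, R 4.3.3) with TMM, filterByExpr and group as the only term, with Benjamini-Hochberg adjustment over 16254 genes. The SE of a log2 fold change is its size over the square root of F. CPM values use TMM library sizes. Genes are called at an adjusted p under 0.05. Libraries held 11253058 to 13327617 counts, and amplification adds error beyond counting.

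Library pairs were compared by chi-square (genes of 50 or more counts), which per gene ran between 3.22 and 5.90 for libraries of 1 group and between 40.6 and 69.9 across groups, so no library was a copy of another. Fits were tested on simulated data. Alternatives were other scalings (size factors of DESeq2, upper quartiles, library size, TMM without mitochondrial genes), the Wald test of DESeq2 1.42.0, voom of limma 3.58.1, other filters and thresholds, other mitochondrial totals, the replicate number as a block and each tumour left out. Members and gene lists were chosen with earlier results of these data known. The rule for names took all 37 genes, VCAN, TFAM, POLRMT, LRPPRC, up to 4 called members with the smallest p of each list, and the 4 nuclear copies with most counts. RN7SL1 falls under the lists. A list of markers taken as near 0 in PC-3 is not reported here.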

Additional observations from a re-analysis of the deposited data

How the results depend on the processing

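The 22 mitochondrial genes called lower were 22 under each scaling, the DESeq2 Wald test, voom, no filter, an adjusted p under 0.01 and each tumour left out (22 to 22), 21 with a filter of 1 CPM in 3 samples, and 18 where the absolute log2 fold change had to reach 1. Higher calls were 0 throughout (0 to 0). The median of the 13 messenger RNAs ran from −1.51 (without shVCAN tumour 3) to −1.24 (library size only). Of single-gene values under alternatives, 677 kept their direction and side of the threshold, 17 lost a call, 1 gained one and 0 reversed. Relative to the mitochondrial total, genes lower numbered 3 at an adjusted p under 0.01, 7 with the sum over all 37 genes (MT-ND4 gained, −0.24) and 3 to 6 with a tumour left out, and genes higher 4 to 4. Nuclear genes of mitochondrial expression called lower were 0 with library size only and 2 to 8 with a tumour left out (2 without shGFP tumour 3 or shVCAN tumour 1, 3 without shVCAN tumour 3, 4 without shGFP tumour 2), and those higher 24 to 32. Upper quartile factors gave 3 lower and 40 higher. Per nuclear count, a change of denominator, shares came to 7.48% in shVCAN and 18.2% in shGFP for messenger, 2.12% in shVCAN and 4.03% in shGFP for ribosomal, and 0.00665% in shVCAN and 0.0162% in shGFP for transfer RNAs. With a tumour left out, shares ran from 6.41% to 7.03% (shVCAN) and 14.2% to 15.6% (shGFP) for messenger, 1.79% to 2.00% (shVCAN) and 3.21% to 3.41% (shGFP) for ribosomal, and 0.00573% to 0.00639% (shVCAN) and 0.0124% to 0.0146% (shGFP) for transfer RNAs.

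The replicate number as a block left 22 mitochondrial genes lower and 0 higher, 6 and 4 relative to the mitochondrial total, and 7 and 34 of the nuclear expression genes. The numbers did not pair the samples: deviations of same-numbered tumours correlated at 0.018, 0.016 and −0.027. The transfer RNAs had the fewest counts and the widest SEs, and MT-TE and MT-TA were the relative calls lost most often.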
